A study of Arabidopsis thaliana with 18 samples.

Results

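Roots of phosphate-starved and phosphate-fed Arabidopsis thaliana seedlings were compared while both were under the cytokinin trans-zeatin. The comparison takes 6 of the 18 libraries of the series, 3 per group, chosen by their labels alone. The starved group (5 µM phosphate) and the fed group (625 µM phosphate) were wild-type Col-0 seedlings kept 8 days in Murashige and Skoog medium and then given 5 µM trans-zeatin for 8 h. The other 12 libraries are the same 2 phosphate levels with no cytokinin, called untreated here, and with 5 µM cis-zeatin for 8 h, an isomer with the other geometry of the side-chain double bond. No mock treatment is described for the untreated roots, and the sample labels call the low level "without phosphate" where the growth protocol gives 5 µM. What was sequenced was poly(A) RNA of whole roots, so a loss of cells of a type and a loss of RNA per cell cannot be told apart.

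Plants that run short of phosphate raise uptake transporters and secreted phosphatases, replace membrane phospholipids by sulfolipid and galactolipid, and grow more root hairs. Much of this programme depends on the transcription factor PHR1 and its relatives, which the SPX proteins hold back when phosphate is plentiful. Cytokinins act through histidine kinase receptors and response regulators, restrain root growth, and are known to repress part of the phosphate-starvation programme. The question put to the data was which starvation responses were still there, which had become smaller and which had become larger with trans-zeatin in the medium.

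The 6 trans-zeatin libraries held 21182779 to 21689981 counted reads, within the 20839562 to 21871669 of the whole series, and 19982 genes passed the filter on low counts. The 10 markers of root tissue fixed for a check of the label were all detected, with 6 higher and 2 lower in starved roots. All 3 fed trans-zeatin libraries and all 3 fed untreated ones fall in one sequencing set, inferred from how many reads each library lost to undetermined bases. The starved untreated libraries and replicate 1 of the starved trans-zeatin group fall in another, and starved trans-zeatin replicates 2 and 3 in yet another. Phosphate level and sequencing set therefore cannot be told apart within the trans-zeatin comparison, and no within-set value exists. The labels do not say that replicates were separate cultures, so p-values measure the spread between these libraries, which may be technical.

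Values are given as CPM, the count scaled by library size, and as log2 fold changes of starved over fed roots ± standard error (n = 3 libraries per group). Called means an adjusted p under 0.05 in edgeR's quasi-likelihood test, with Benjamini-Hochberg adjustment over all tested genes, and every adjusted p below comes from that test. Under trans-zeatin 12799 of the 19982 tested genes were called, which is 64.1%, with 6538 higher (32.7%) and 6261 lower (31.3%) in starved roots. A change of at least 2-fold was reached by 2954 of the called genes (14.8%), 1646 up (8.24%) and 1308 down (6.55%). Tested against a 1.5-fold change instead of no change, 2055 genes were higher (10.3%) and 1870 lower (9.36%). All 3 starved libraries lay above all 3 fed ones for 34.8% of the tested genes and below them for 34.3%. In untreated roots 8925 genes were called (44.7%), 22.9% up and 21.8% down, and 8.83% were called at 2-fold or more, 5.06% up and 3.77% down. Under cis-zeatin 49.2% were called, 24.8% up and 24.4% down. So many small changes were called that the counts for gene groups are set beside these shares. The difference between the 2 phosphate effects, the trans-zeatin effect minus the untreated effect, was called for 4085 genes (20.4%), 1854 of them more positive (9.28%) and 2231 more negative (11.2%). Against cis-zeatin the same difference was called for 3666 genes (18.3%), 8.61% more positive and 9.74% more negative.

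Most of the starvation state of untreated roots was still present under trans-zeatin. Of the 1011 genes raised at least 2-fold by starvation in untreated roots, 855 (84.6%) were called higher under trans-zeatin and 713 (70.5%) again reached 2-fold. A further 141 were not called and 15 were called lower. Of the 753 genes lowered at least 2-fold in untreated roots, 660 (87.6%) were called lower, 554 (73.6%) by at least 2-fold, 82 were not called and 11 were higher. Under cis-zeatin the matching counts were 885 of the raised genes (87.5%) and 627 of the lowered ones (83.3%). The 3 phosphate effects share no libraries. In the untreated and the trans-zeatin comparison alike, however, the fed libraries fall in the same sequencing set and the starved ones outside it. The part of the sets in this overlap was not tested.

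The raised genes shrank more often than they grew, while the lowered genes did both about equally. Among the raised genes the effect under trans-zeatin was smaller for 242, larger for 34, and not called different for 735. Their median log2 change was 1.63 in untreated roots and 1.48 under trans-zeatin, and the ratio of the 2 effects had a median of 0.836 with quartiles of 0.56 and 1.08. Among the lowered genes the effect was smaller for 100 and larger for 115, with medians of -1.45 and -1.60. These genes were picked for a large effect in untreated roots, which favours a smaller effect elsewhere, so the count of smaller effects is a description. Picked the other way, of the 1646 genes raised at least 2-fold under trans-zeatin 490 had a larger effect than in untreated roots, and of the 1308 lowered 588 did. With the sequencing set as a term, the raised genes with a smaller effect came to 159, those with a larger one to 20, and the lowered genes to 72 and 53. That fit called 1767 differences in all (8.84%) in place of 4085. Of the 4085, 4084 kept their sign in it. The starved trans-zeatin level in that fit rests largely on replicate 1, which the main fit also holds, so this agreement was largely built in.

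**Figure D1:**
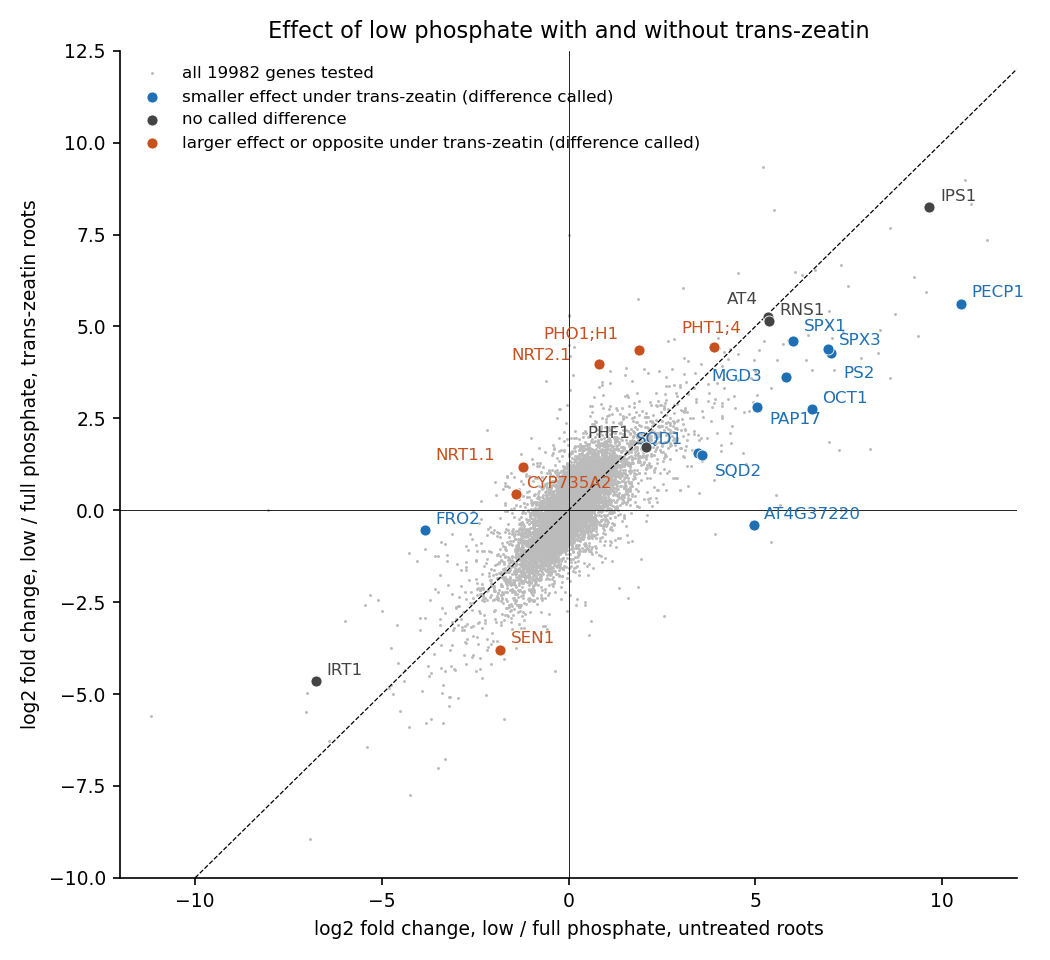
Each point is a tested gene, with the log2 change of low over full phosphate in untreated roots on the x axis and under trans-zeatin on the y axis. Named genes whose effect was called smaller under trans-zeatin, such as PECP1 (10.51 against 5.62) and PS2 (7.03 against 4.28), lie between the diagonal and the zero line. The exception is AT4G37220, drawn with them, which lies just below the zero line. AT4 and RNS1 lie near the diagonal, and NRT2.1, PHO1;H1, NRT1.1 and SEN1 lie away from it on the side of a larger or an opposite effect.

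The RNAs that act on the microRNA miR399 remained high. Starvation induces miR399, which directs cleavage of the mRNA of PHO2, a ubiquitin-conjugating enzyme that lowers phosphate transport proteins. IPS1 and AT4 are non-coding RNAs that bind miR399 but cannot be cleaved because bases at the middle of the site stay unpaired. The mature miR399b and its sites are shown to let these differences be seen, read from RefSeq on TAIR10.1. In the microRNA the capitals mark the seed, bases 2 to 8. In the sites they mark the 18 bases that pair with miR399b when the site is read from its 3′ end, and the lower-case run in the middle of IPS1 and AT4 includes 3 bases with no partner. The positions are chr1:23345387-23345407 (minus strand) for miR399b, chr3:3051224-3051247 (plus) for IPS1, chr5:895149-895172 (plus) for AT4 and chr2:14281884-14281904 (minus) for one of 5 sites in PHO2.
miR399b: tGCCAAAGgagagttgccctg
IPS1 site: ttGGGCAACTtctaTCCTTTGGCA
AT4 site: ttGGGCAACTtcgaTCCTTTGGCA
PHO2 site: ttGGGCAAaTCTCCTTTGGCA

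IPS1 (AT3G09922) stood at 174, 173 and 203 CPM in the starved trans-zeatin libraries and at 0.24, 1.28 and 0.294 CPM in the fed ones. It was the largest rise among the called genes of above-median expression whose groups did not overlap, with a log2 change of 8.24 ± 0.25 (adjusted p = 1.6e-15). In untreated roots it rose by 9.66, and the difference of -1.43 was not called (adjusted p = 0.0653). AT4 (AT5G03545) had 1303, 1075 and 1322 CPM against 27.9, 27 and 41.5 CPM. Its log2 change of 5.26 ± 0.16 (adjusted p = 1.56e-15) was within its error of the 5.35 in untreated roots (difference -0.08 ± 0.19, adjusted p = 0.80). Both RNAs were thus far above all fed libraries in every starved one. The 6 MIR399 genes in the table had 0 reads in all 18 libraries, so the microRNA itself was not measured here.

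PHO2 (AT2G33770) had 65.2, 57.6 and 49.0 CPM in starved and 294, 250 and 214 CPM in fed roots under trans-zeatin. It fell by 2.14 ± 0.14 on the log2 scale, more than the 1.05 by which it fell in untreated roots (difference -1.09, adjusted p = 0.000428). NLA (AT1G02860), a ubiquitin ligase that acts with PHO2 on phosphate transporters, also fell further, to 8.81, 7.42 and 9.53 CPM from 50.9, 54.6 and 53.5 CPM (-2.63 ± 0.10 against -1.60 in untreated roots, adjusted p of the difference 4.74e-05). PHO1 (AT3G23430), which exports phosphate into the xylem, fell by 0.93 ± 0.12, while its change in untreated roots was -0.20 (adjusted p = 0.205). In the group of phosphate export, vacuolar storage and PHO2 genes 6 of 11 tested members rose and 5 fell. For 4 of the 11 the effect was called more negative than in untreated roots and for 1 more positive. With the sequencing set as a term these counts were 2 and 1.

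PHO1;H1 (AT1G68740), a homologue of PHO1 that takes part in phosphate loading of the xylem, was the 1 with a more positive effect. It had 93.5, 91.1 and 71.5 CPM in starved trans-zeatin roots, close to the 96.7 ± 13.4 CPM (SD, n = 3) of starved untreated ones. In fed trans-zeatin roots it stood at 3.79, 4.28 and 4.31 CPM, against 26.1 ± 3.75 CPM in fed untreated roots. The starvation effect was therefore 4.37 ± 0.15 under trans-zeatin and 1.89 ± 0.12 without it, a difference of 2.48 ± 0.20 (adjusted p = 4.80e-08). The larger effect came with a lower level in the fed roots.

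Phosphate uptake transporters rose under trans-zeatin, with lower summed levels than in untreated roots at both phosphate levels. The sums were 836.2 to 1199 CPM in starved and 417.3 to 469.9 CPM in fed trans-zeatin roots. Untreated roots had 2450 to 2665 and 716.3 to 746.6 CPM. All 9 tested genes of the PHT1 transporter family and PHF1, the endoplasmic reticulum protein that PHT1 transporters need to leave for the plasma membrane, were called higher in starved roots, as in untreated roots. Rises of at least 2-fold were seen for 8 of the 9. The effect was called more negative than in untreated roots for 3 and more positive for 1. With the sequencing set as a term these counts were 1 and 1. PHT1;4 (AT2G38940), a high-affinity root transporter, had 180, 152 and 158 CPM in starved and 7.39, 8.12 and 7.20 CPM in fed trans-zeatin roots, where untreated roots had 719 ± 44.4 and 48.1 ± 5.31 CPM (SD, n = 3). Both levels were lower with the cytokinin, and the effect of 4.43 ± 0.10 was larger than the 3.90 ± 0.09 of untreated roots (difference 0.53, adjusted p = 0.00714).

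PHT1;1 (AT5G43350), a major uptake transporter of the root, rose from 374, 416 and 412 CPM to 790, 518 and 693 CPM (0.73 ± 0.11, adjusted p = 9.33e-06). Starved replicate 2 was the lowest of the 3 and still above all fed libraries. PHF1 (AT3G52190) had 110, 90.0 and 95.8 CPM against 28.6, 32.3 and 28.4 CPM (1.73 ± 0.09), and its difference of -0.35 from untreated roots was not called (adjusted p = 0.0533). With same-numbered starved untreated and starved trans-zeatin libraries as a replicate block it was (adjusted p = 0.0149). PHT1;9, which acts in root uptake with PHT1;8, rose by 1.13 under trans-zeatin and by 2.56 in untreated roots, and this difference was called (adjusted p = 1.14e-05). PHT1;1, PHT1;2 and PHT1;3 are near-identical in sequence, so reads could be split among them, and their separate values are uncertain.

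**Figure D2:**
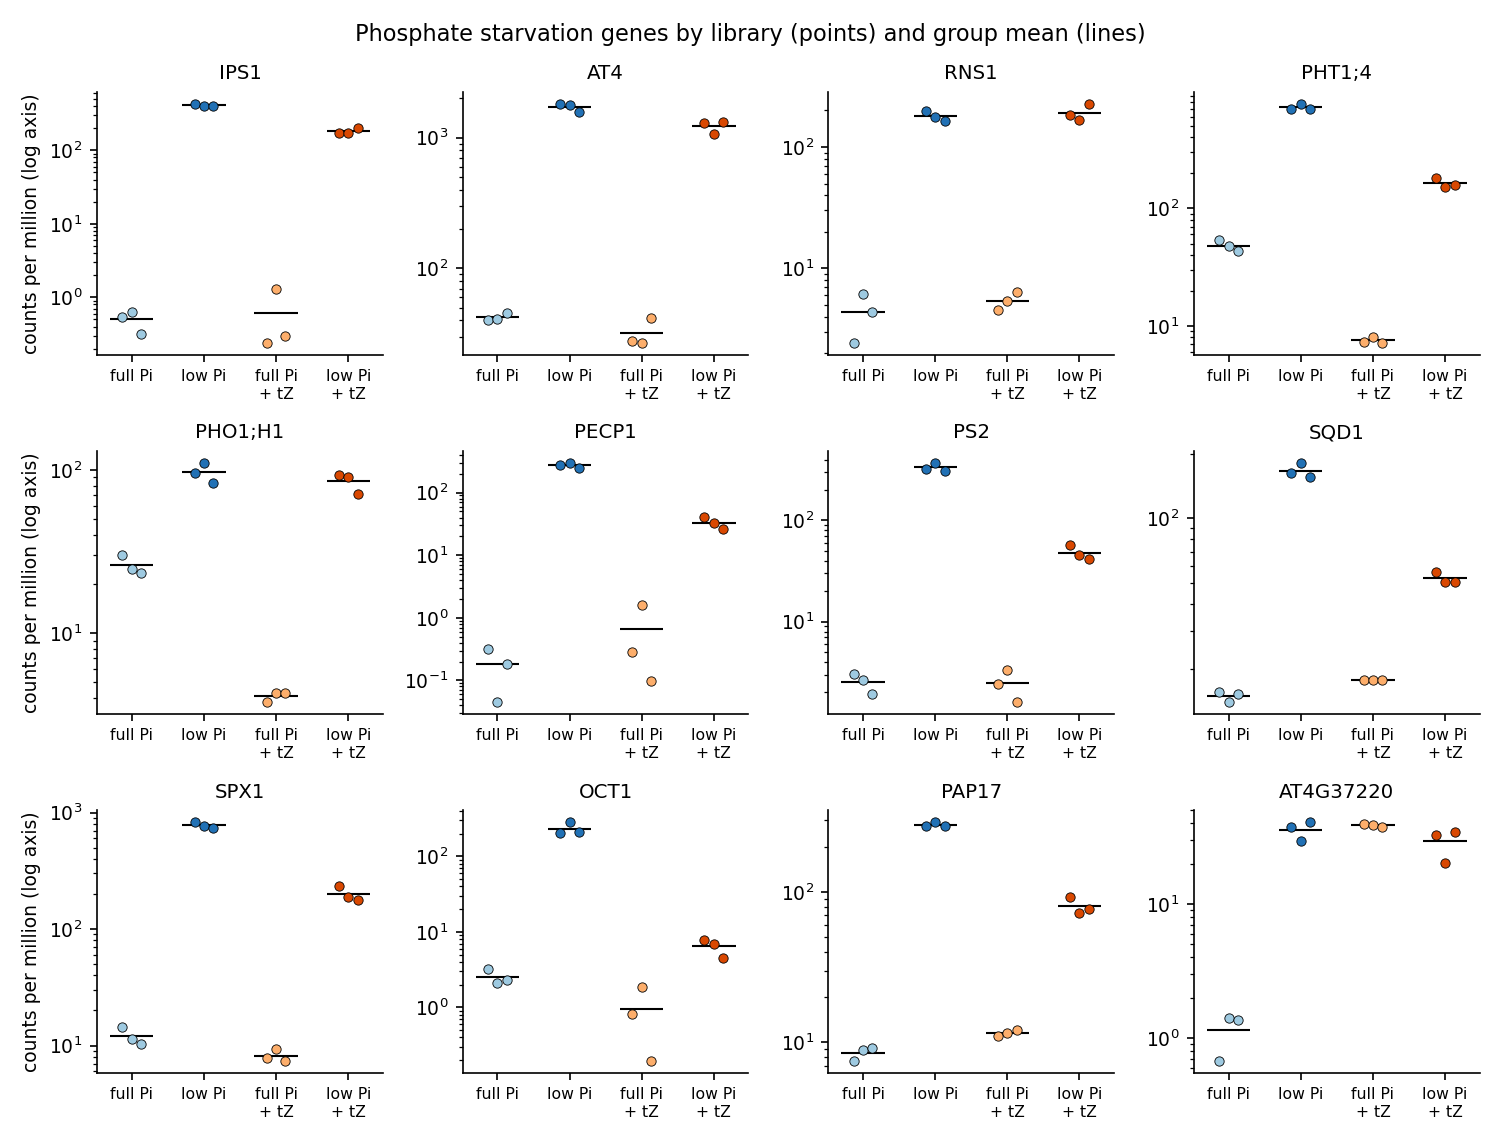
CPM on a log axis for 12 phosphate-starvation genes in each of the 3 libraries of fed and starved roots, untreated and under trans-zeatin, with lines at the group means. AT4 and RNS1 reach similar starved levels in both, PECP1 falls from 273.9 to 33.1 CPM in mean between starved untreated and starved trans-zeatin roots, and PHO1;H1 is lower in the fed trans-zeatin roots.

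Most genes that recover phosphate from organic molecules kept a rise, and several had a smaller one than in untreated roots. RNS1 (AT2G02990), a secreted ribonuclease, was the exception, with 183, 167 and 226 CPM in starved and 4.51, 5.37 and 6.37 CPM in fed trans-zeatin roots. Its effect of 5.15 ± 0.20 did not differ detectably from the 5.36 ± 0.21 in untreated roots (adjusted p = 0.648). PECP1 (AT1G17710), a phosphatase of phosphoethanolamine and phosphocholine, had 41.1, 32.2 and 26.0 CPM in starved libraries and 0.288, 1.62 and 0.098 CPM in fed ones. That is a log2 change of 5.62 ± 0.32 (adjusted p = 1.24e-11) where untreated roots had 10.51 ± 0.35, a difference of -4.89 ± 0.82 (adjusted p = 0.000287). Fed replicate 2 was the highest of its group for PECP1, as for IPS1, PHT1;2, OCT1 and SPX3. The size of these effects, and of their differences from untreated roots, therefore leans in part on that library. Without it the difference of the PECP1 effect from that under cis-zeatin went from -4.33 to -2.58 and was not called.

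PS2 (AT1G73010), a pyrophosphatase named for its response to phosphate starvation, had 56.7, 45.2 and 41.6 CPM against 2.4, 3.35 and 1.62 CPM. The fed level was close to the 2.54 ± 0.566 CPM of untreated fed roots, and the starved level was far under the 334 ± 32.0 CPM of untreated starved roots (SD, n = 3). Its log2 change was 4.28 ± 0.17 against 7.03 ± 0.17, a difference of -2.75 ± 0.27 (adjusted p = 7.95e-07). OCT1 (AT1G73220), an organic cation transporter, showed 7.90, 6.99 and 4.56 CPM in starved and 0.816, 1.87 and 0.196 CPM in fed libraries. It reached 232 ± 45.5 CPM in starved untreated roots, and the effects of 2.75 and 6.51 differed by -3.76 ± 0.54 (adjusted p = 5.73e-05). Among the 9 tested genes of organic phosphorus scavenging 6 rose and 1 fell, and for 5 the effect was called more negative than in untreated roots, also with the sequencing set as a term.

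Purple acid phosphatases, which release phosphate from organic esters, rose more often than they fell. Of 24 tested members (28 in the list) 12 rose and 7 fell, where untreated roots had 12 up and 3 down. Over all tested genes 32.7% rose and 31.3% fell. By at least 2-fold 10 members rose and 2 fell. The effect was more negative than in untreated roots for 10 and more positive for 1. It was more negative for 6 with the sequencing set as a term. PAP17 (AT3G17790), a widely used marker of starvation, went from 11, 11.6 and 12.1 to 93.1, 72.2 and 77.3 CPM (2.81 ± 0.13 against 5.04 in untreated roots, adjusted p of the difference 8.05e-08). PAP10 (AT2G16430), the phosphatase of the root surface, had 77.5, 66.1 and 77.6 CPM against 34.8, 40.0 and 34.9 CPM (1.01 ± 0.08 against 1.66, adjusted p 0.000468). PAP23 had no read in any fed trans-zeatin library and was at least 38.5-fold higher in the starved ones, taking the limit that 3 counts over the group allow.

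In lipid synthesis the starvation effect was more negative under trans-zeatin for every tested member. The 8 genes of sulfolipid and galactolipid synthesis had a median log2 change of 1.11 under trans-zeatin and 3 in untreated roots, and over all tested genes the medians were 0.02 and 0.00. Under trans-zeatin 6 rose, 1 fell and 1 was not called, while all 8 rose in untreated roots. The difference was called for 8 of 8, with and without the sequencing set as a term. SQD1 (AT4G33030), which makes the sulfolipid head group, had 56.7, 50.8 and 50.7 CPM in starved and 17.9, 17.7 and 17.8 CPM in fed trans-zeatin roots. Fed untreated roots held a similar 15.1 ± 0.838 CPM, and starved untreated roots 166 ± 12.9 CPM. The effects were 1.57 ± 0.08 and 3.47 ± 0.08 (difference -1.90 ± 0.11, adjusted p = 9.36e-10).

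SQD2 (AT5G01220), which completes the sulfolipid, behaved alike, with 184, 147 and 142 CPM against 57.2, 56.8 and 52.1 CPM (1.51 ± 0.09 against 3.58, adjusted p of the difference 1.85e-09). MGD3 (AT2G11810), a galactolipid synthase of starved roots, had 19.1, 15.3 and 13.5 CPM against 1.34, 0.985 and 1.52 CPM (3.63 ± 0.22 against 5.83, adjusted p 0.000190). MGD1, the housekeeping enzyme of the same step, fell by 0.38 under trans-zeatin and rose by 0.47 in untreated roots. DGD1 (AT3G11670), which adds the other galactose, was at 23.3, 22.5 and 19.3 against 18.1, 19.4 and 18.7 CPM, a change of 0.21 ± 0.09 that was not called (adjusted p = 0.0505), though it was with the replicate block of starved libraries (adjusted p = 0.0377), while it rose by 1.26 in untreated roots.

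Of the 13 tested genes of phospholipid breakdown 9 rose and 3 fell, and the effect was more negative than in untreated roots for 7 and more positive for 2. With the sequencing set as a term it was again more negative for 7. GDPD1 (AT3G02040), which hydrolyses glycerophosphodiesters, had 136, 100 and 100 CPM against 32.4, 34.8 and 27.1 CPM (1.84 ± 0.11 against 4.34 in untreated roots, adjusted p of the difference 1.97e-09). NPC4 (AT3G03530), a phospholipase C, kept more of its effect, with 74.7, 53.0 and 70.1 CPM against 8.02, 8.47 and 7.99 CPM (3.01 ± 0.12 against 4.28, adjusted p 1.86e-05). GDPD2, another glycerophosphodiesterase, fell by 0.72 under trans-zeatin and rose by 0.90 without it.

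Among the regulators of the programme SPX1, SPX2 and SPX3 rose and PHR1 fell slightly. SPX1 (AT5G20150), an inhibitor of PHR1, had 232, 187 and 176 CPM in starved and 7.78, 9.26 and 7.4 CPM in fed trans-zeatin roots (4.61 ± 0.14 against 6.01 in untreated roots, adjusted p of the difference 2.91e-05). SPX3 (AT2G45130), of the same family, had 9.29, 7.94 and 8.69 CPM against 0.24, 0.788 and 0.196 CPM (4.39 ± 0.26 against 6.95, adjusted p 0.00163). PHR1 itself fell by 0.37 and its relative PHL1 by 0.71. Of the 9 SPX and PHR genes tested 3 rose and 4 fell, and for 3, SPX1, SPX2 and SPX3, the effect was more negative than in untreated roots.

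Transcription factors linked to phosphate starvation went mostly down. Of 9 tested 1 rose and 5 fell, where untreated roots had 4 up and 3 down, and for 5 the effect was more negative than in untreated roots, or for 4 with the sequencing set as a term. WRKY75 (AT5G13080), a regulator of starvation genes and root architecture, had 8.67, 7.29 and 8.37 CPM in starved and 34.9, 39.7 and 38.7 CPM in fed trans-zeatin roots (-2.22 ± 0.11 against -0.93). WRKY45 (AT3G01970), an activator of PHT1;1, turned round. It had 39.5, 29.98 and 33.3 CPM against 62.9, 72.4 and 73.5 CPM, a fall of 1.02 ± 0.10 on the log2 scale, where it rose by 0.73 ± 0.12 in untreated roots (difference -1.75, adjusted p = 2.34e-07). Fed roots with trans-zeatin held far more WRKY45 than the 12.1 ± 0.58 CPM of fed untreated roots.

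AT4G37220, annotated as a cold-acclimation protein of the WCOR413 family, had the most negative difference of the named genes. Starved roots had 33.0, 20.4 and 34.5 CPM and fed roots 39.4, 39.1 and 37.5 CPM under trans-zeatin, while untreated roots had 35.9 ± 5.92 and 1.15 ± 0.413 CPM. The effect was -0.40 ± 0.16 (adjusted p = 0.0286) against 4.96 ± 0.23, a difference of -5.36 ± 0.29 (adjusted p = 5.55e-10). The small fall under trans-zeatin lost its call without fed replicate 1 or 2 or without starved replicate 2. The starved level was about the same with and without trans-zeatin, and the fed level was the one that differed.

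**Figure D3:**
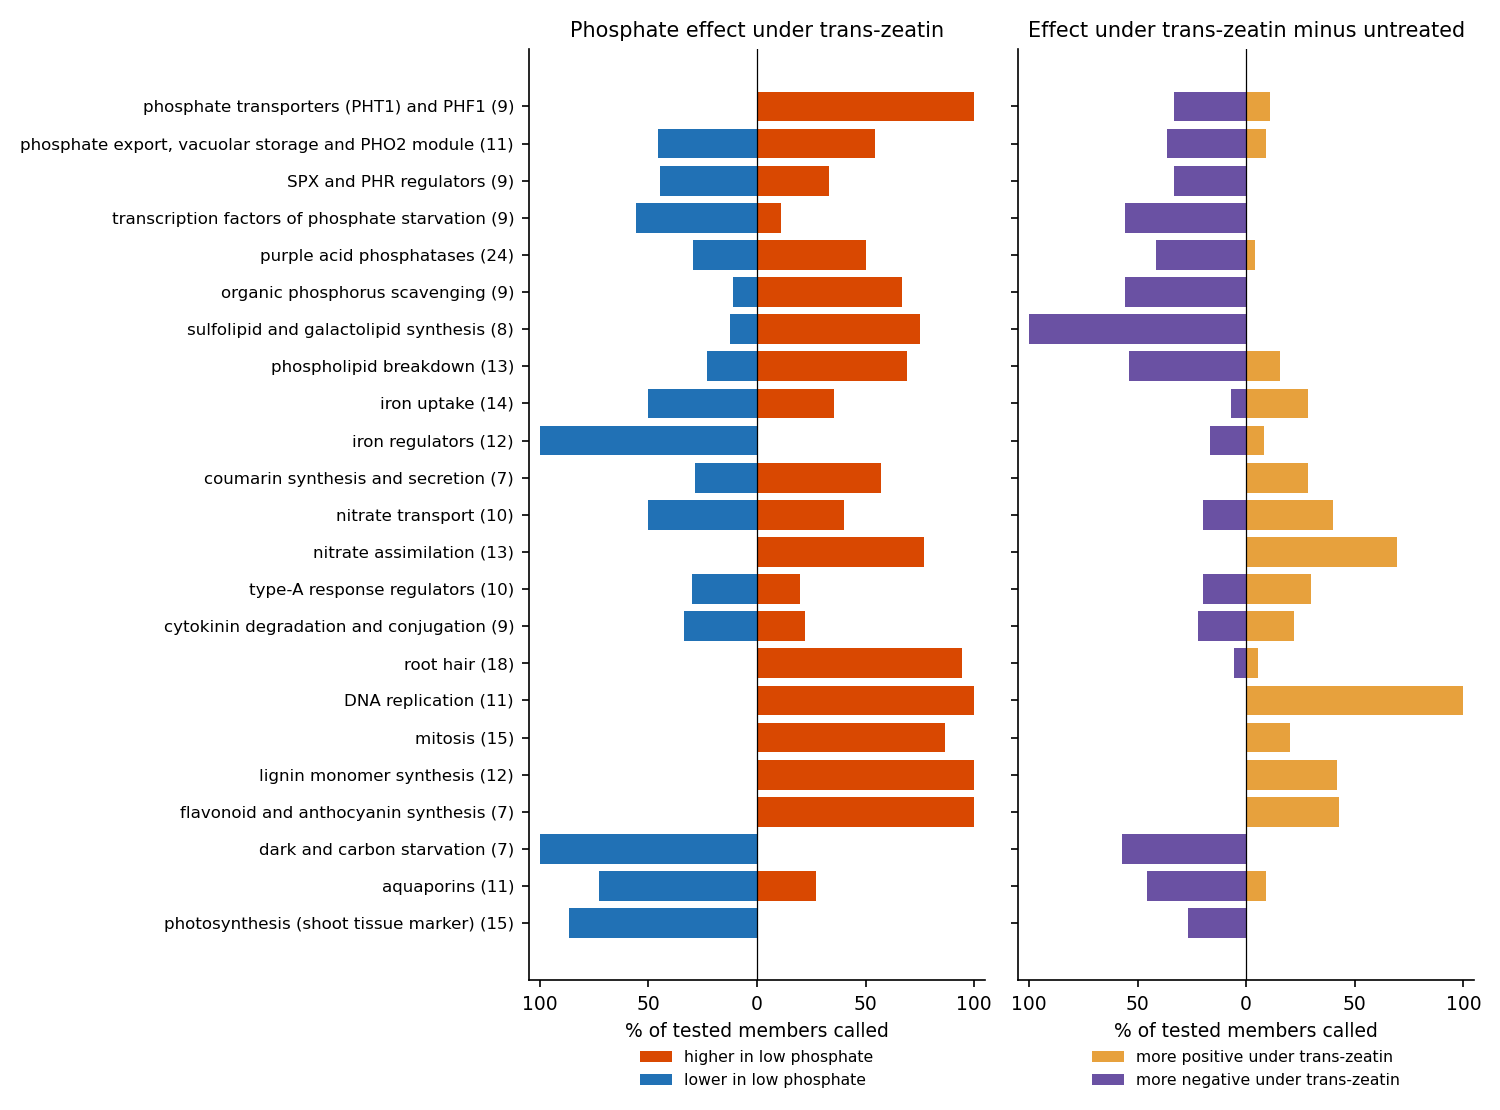
Share of the tested members of each gene group, in percent, called higher or lower under trans-zeatin (left) and called more positive or more negative than in untreated roots (right). The shares over all tested genes are not drawn. They were 32.7% higher and 31.3% lower (left), and 9.28% more positive and 11.2% more negative (right). Root hair and DNA replication genes rise nearly throughout, iron regulators fall in 12 of 12, and sulfolipid and galactolipid genes are more negative than in untreated roots in 8 of 8.

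Sequence upstream of the genes with a smaller effect was compared with that of genes whose effect did not differ, using the site that PHR1 binds, GNATATNC. The motif reads the same on both strands. It was searched in the 300 bases before each gene's start on TAIR10.1, with a gene counted once however many matches it had. It was present for 6.30% of all 37897 annotated genes and for 6.58% of the tested ones. Of the genes raised at least 2-fold in untreated roots 13.7% had it (139 of 1011). Among those whose effect was smaller under trans-zeatin the share was 26.9% (65 of 242), and among those with no called difference 9.39% (69 of 735). These 2 classes had about the same median effect in untreated roots (1.68 and 1.63). Their medians under trans-zeatin (0.62 and 1.66) were unlike by the definition of the classes. In both, genes with the motif had a larger median effect in untreated roots than those without. The values were 2.1 against 1.64 for the smaller effect and 1.84 against 1.6 for no called difference. Restricted to genes raised at least 4-fold in untreated roots, the shares were 33.7% (34 of 101) and 12.3% (31 of 253). A split of the 1011 genes by their call under trans-zeatin gave no such contrast. The motif was present for 14.2% (121 of 855) of those called higher and for 11.5% (18 of 156) of the rest. Genes raised at least 2-fold under trans-zeatin but not called in untreated roots had it in 2.97% (11 of 370), and genes lowered in untreated roots in 5.02% (37 of the 737 with such a window). The shares are descriptions, with no test made of them.

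Other windows, chosen after the shares above had been seen, gave the same order. In the 1000 bases before the start the shares were 20.4% of all tested genes, 41.7% of those with a smaller effect and 23.4% of those with no called difference. From 250 bases before to 50 after the start they were 6.25%, 28.9% and 9.39%. For the split by call, higher against the rest, the shares were 28.8% and 24.4% in the 1000 bases. They were 14.3% and 14.1% in the other window. Carrying the motif did not separate the named genes cleanly. AT4 has it and its effect did not differ, while PECP1, SPX1, SQD1, SQD2, MGD3, OCT1 and PAP17 have none in this window and had smaller effects, which says nothing of PHR1 binding elsewhere.

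**Figure D4:**
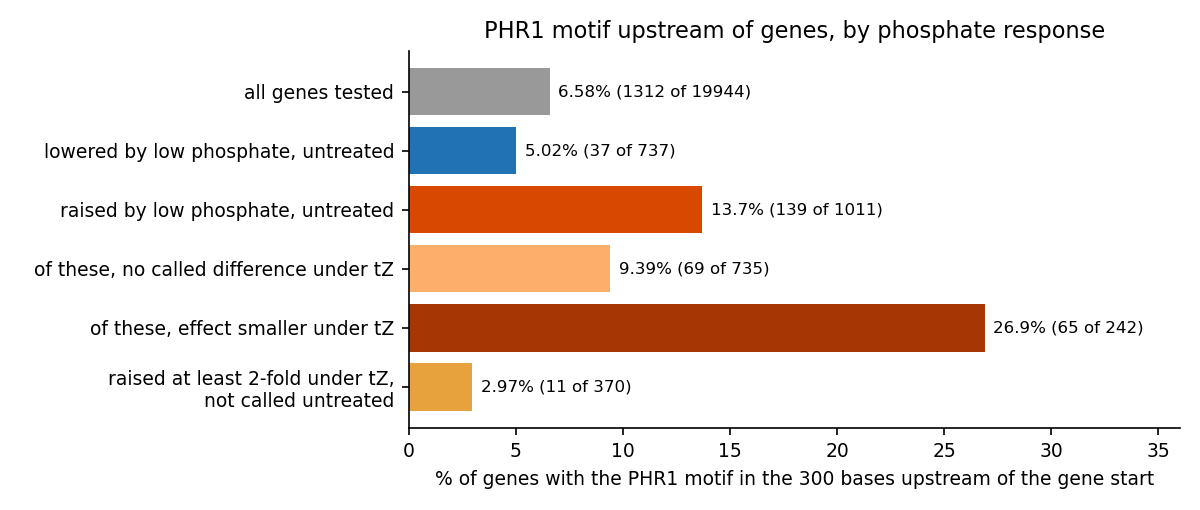
Percentage of genes in each class with at least 1 GNATATNC in the 300 bases before the gene start. The class with a smaller effect under trans-zeatin stands at 26.9%, against 9.39% for no called difference and 6.58% for all tested genes.

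The windows of a gene whose effect was kept, AT4, and of 3 whose effect was smaller, SPX3, PS2 and GDPD1, are printed so that the number, letters and place of the motif can be compared. They come from RefSeq on TAIR10.1, at chr5:894282-894581 (plus strand) for AT4, chr2:18606110-18606409 (plus) for SPX3, chr1:27466349-27466648 (minus) for PS2 and chr3:350011-350310 (minus) for GDPD1. None of the windows overlaps another annotated gene, each is written 5′ to 3′ towards the gene, and capitals mark the motif. Its leftmost base lies at -26 for AT4, at -213 and -90 for SPX3, at -217 for PS2 and at -127 and -63 for GDPD1, counted from the gene start.
AT4: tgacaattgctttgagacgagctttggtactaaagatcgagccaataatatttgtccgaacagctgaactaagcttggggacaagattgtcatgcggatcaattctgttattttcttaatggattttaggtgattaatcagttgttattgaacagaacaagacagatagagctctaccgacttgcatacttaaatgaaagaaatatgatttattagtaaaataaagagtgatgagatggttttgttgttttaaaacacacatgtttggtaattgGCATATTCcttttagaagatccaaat
SPX3: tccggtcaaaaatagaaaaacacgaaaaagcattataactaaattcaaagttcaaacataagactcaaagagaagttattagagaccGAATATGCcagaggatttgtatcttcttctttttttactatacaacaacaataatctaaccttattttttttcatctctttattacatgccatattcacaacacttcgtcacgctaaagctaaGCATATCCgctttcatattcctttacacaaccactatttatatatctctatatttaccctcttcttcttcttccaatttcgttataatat
PS2: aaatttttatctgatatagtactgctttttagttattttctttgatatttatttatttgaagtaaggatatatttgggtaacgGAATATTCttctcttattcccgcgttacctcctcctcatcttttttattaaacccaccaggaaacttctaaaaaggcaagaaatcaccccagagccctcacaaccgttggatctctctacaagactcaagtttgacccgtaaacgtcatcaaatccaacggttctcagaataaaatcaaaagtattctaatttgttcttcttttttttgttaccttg
GDPD1: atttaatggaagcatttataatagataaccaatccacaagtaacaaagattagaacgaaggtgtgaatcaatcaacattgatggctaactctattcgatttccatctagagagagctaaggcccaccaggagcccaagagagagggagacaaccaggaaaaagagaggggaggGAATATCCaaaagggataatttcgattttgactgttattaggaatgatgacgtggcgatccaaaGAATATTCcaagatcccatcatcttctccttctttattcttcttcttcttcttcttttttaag

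The starvation effect on nitrate genes was often more positive under trans-zeatin. NRT2.1 (AT1G08090), a high-affinity nitrate transporter, had 55.5, 40.4 and 76.8 CPM in starved trans-zeatin roots and 3.69, 3.25 and 4.07 CPM in fed ones, a log2 change of 3.97 ± 0.29 (adjusted p = 3.25e-10). In untreated roots it had 136 ± 51.5 and 77.9 ± 3.35 CPM, a change of 0.80 ± 0.22, so the difference was 3.16 ± 0.36 (adjusted p = 4.92e-06). NRT1.1 (AT1G12110), a nitrate transporter and sensor, had 168, 137 and 170 CPM against 67.9, 60.7 and 80.8 CPM. It rose by 1.19 ± 0.13 under trans-zeatin and fell by 1.22 ± 0.13 on the log2 scale in untreated roots, which had 457 ± 83.2 and 1063 ± 127 CPM (difference 2.4 ± 0.19, adjusted p = 3.89e-08). All 3 starved libraries lay above all 3 fed ones for both transporters.

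Of the 13 tested genes of nitrate assimilation 10 rose under trans-zeatin, 0 of them by at least 2-fold. Untreated roots had 3 up and 7 down. The summed level was lower with trans-zeatin at both phosphate levels. It was 4339 to 5140 CPM in starved and 4114 to 4532 CPM in fed trans-zeatin roots. Untreated roots had 6471 to 8519 CPM when starved and 11800 to 12930 CPM when fed. The effect was more positive for 9, or for 7 with the sequencing set as a term. NIA1 (AT1G77760), a nitrate reductase, had 128, 106 and 103 CPM against 53.0, 58.2 and 63.2 CPM (0.95 ± 0.12 against 0.16, adjusted p of the difference 0.00269). NIR1 (AT2G15620), the nitrite reductase, had 128, 125 and 141 CPM against 94.2, 103 and 115 CPM, a rise of 0.34 ± 0.10 where it fell by 0.68 ± 0.09 in untreated roots (difference 1.02, adjusted p = 2.34e-05). Of the 10 nitrate transport genes 4 rose and 5 fell, and the effect was more positive than in untreated roots for 4 and more negative for 2.

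**Figure D5:**
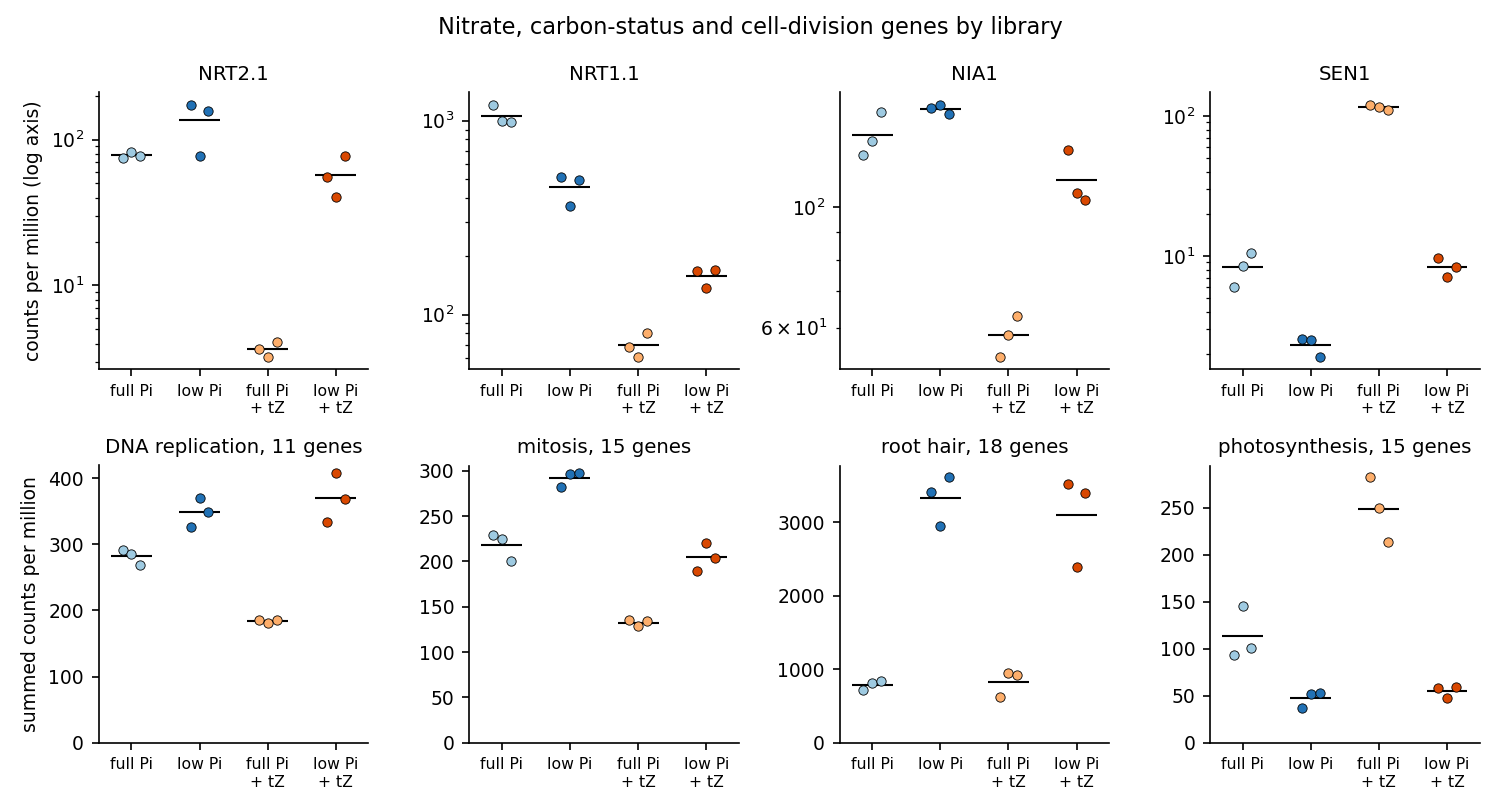
CPM on a log axis for NRT2.1, NRT1.1, NIA1 and SEN1, and the summed CPM of the DNA replication, mitosis, root hair and photosynthesis lists, in each library of fed and starved roots, untreated and under trans-zeatin. NRT1.1 is higher in starved than in fed roots with trans-zeatin and lower without it, and the DNA replication sum runs from 180.8 to 186.0 in fed and from 333.2 to 407.6 in starved trans-zeatin roots.

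Iron regulators fell again, and the uptake genes were divided. All 12 tested iron regulators were called lower in starved trans-zeatin roots, as 11 were in untreated roots. IRT1 (AT4G19690), the main iron importer of the root, had 0.383, 0.26 and 0.093 CPM in starved and 7.97, 6.99 and 3.97 CPM in fed roots (-4.66 ± 0.48, adjusted p = 5.07e-08). Fed untreated roots had 84.1 ± 13.5 CPM, and the difference from the untreated effect of -6.75 was not called (adjusted p = 0.126). FRO2 (AT1G01580), the ferric reductase that works beside IRT1, had 1.82, 2.65 and 1.72 CPM against 3.26, 3.25 and 2.5 CPM. Its groups overlapped and its change of -0.53 ± 0.24 was not called (adjusted p = 0.059), while in untreated roots it went from 37.5 ± 4.60 to 2.62 ± 0.377 CPM (difference 3.3 ± 0.31, adjusted p = 5.69e-07). Its fed level was thus already low with trans-zeatin. Of the 14 iron uptake genes 5 rose and 7 fell, and for 4 the effect was more positive than in untreated roots and for 1 more negative, or for 5 and 2 with the replicate block of starved libraries.

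Copper uptake genes fell as without the cytokinin. FRO5 (AT5G23990), a copper-responsive reductase, was the largest fall of the above-median genes, with 0.0958, 0.0434 and 0.279 CPM against 65.2, 83.8 and 65.0 CPM (-8.96 ± 0.37, adjusted p = 1.08e-13). COPT2 (AT3G46900), a copper importer, had 0.91, 0.694 and 1.58 CPM against 34.3, 34.4 and 33.9 CPM (-5.01 ± 0.26). Of the 13 tested copper genes 8 fell and 2 rose, CSD1 and CSD2, the copper superoxide dismutases, with 1.59 and 1.1. The differences from untreated roots were -2.02 for FRO5 (adjusted p = 0.0804) and -0.29 for COPT2 (adjusted p = 0.655), neither of them called.

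Genes of DNA replication were higher in starved roots by more than in untreated roots, while the mitosis genes were mostly not called different. All 11 tested DNA replication genes rose, with a median log2 change of 1.01 under trans-zeatin, 0.33 in untreated roots and 0.25 under cis-zeatin. The effect was larger than in untreated roots for 11 of 11, for 4 with the sequencing set as a term and for 8 without starved replicate 2. TSO2 (AT3G27060), the small subunit of ribonucleotide reductase, had 45.8, 57.4 and 53.8 CPM against 21.88, 22.3 and 23.6 CPM (1.21 ± 0.10 against 0.33, adjusted p of the difference 0.000142). CDT1A (AT2G31270), a licensing factor of replication, had 21.4, 26.8 and 25.9 CPM against 10.9, 10.6 and 9.46 CPM (1.25 ± 0.11 against 0.46). The summed level of the 11 genes was 268.1 to 290.9 CPM in fed untreated roots, so the fed trans-zeatin libraries, at 180.8 to 186.0 CPM, were the low ones.

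Of 15 mitosis genes 13 rose, with a larger effect than in untreated roots for 3, or for 1 with the sequencing set as a term. CYCB1;1 (AT4G37490), a mitotic cyclin, had 6.71, 8.33 and 7.53 CPM against 2.69, 3.59 and 2.89 CPM (1.30 ± 0.13 against 0.45). Of 9 tested Casparian strip genes 6 rose and 1 fell. Their summed level was 844.8, 510.6 and 732.6 CPM in starved trans-zeatin replicates 1 to 3 and 430.9 to 510.3 CPM in the fed ones. The part of a changed tissue make-up in these results was not tested.

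Root hair genes rose together, and by about as much as without trans-zeatin. Of 18 tested 17 were called higher, 15 by at least 2-fold, and 16 were higher by more than 1.5-fold when that was the change tested against. Untreated roots also had 17 up. EXPA7 (AT1G12560), a root hair expansin, had 98.7, 70.4 and 99.7 CPM against 20.01, 28 and 25.2 CPM (1.88 ± 0.13 against 1.76, difference not called, adjusted p = 0.699). RHD6 (AT1G66470), which starts root hair formation, had 21.8, 28 and 23.1 CPM against 9.5, 9.95 and 9.65 CPM (1.33 ± 0.10). GL2, which keeps non-hair cells from forming hairs, was the member not called (0.23, adjusted p = 0.182). The difference from untreated roots was called more positive for 1 and more negative for 1, and against cis-zeatin the effect was larger for 7.

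Phenylpropanoid genes rose as well. All 12 lignin monomer genes and all 7 tested flavonoid genes were higher, with a larger effect than in untreated roots for 5 and 3 of them. PAL1 (AT2G37040), the entry enzyme of the pathway, rose by 0.89 ± 0.09 and CHS (AT5G13930), which makes the flavonoid skeleton, by 1.18 ± 0.13, and neither difference from untreated roots was called (adjusted p = 0.748 and 0.412).

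Dark and carbon-starvation genes were lower in starved roots in 7 of 7 cases, and fed levels of those described here were higher with trans-zeatin than without. SEN1 (AT4G35770), induced by darkness and senescence, had 9.68, 7.03 and 8.32 CPM in starved and 121, 116 and 110 CPM in fed trans-zeatin roots (-3.79 ± 0.21, adjusted p = 1.05e-11). In untreated roots the levels were 2.32 ± 0.362 and 8.31 ± 2.21 CPM (-1.84), a difference of -1.96 ± 0.38 (adjusted p = 0.00107). DRM1 (AT1G28330), a dormancy-associated gene, had 69.1, 64.4 and 65.6 CPM against 383, 396 and 400 CPM (-2.57 ± 0.16 against -1.36, adjusted p 0.000479). For 4 of the 7 the effect was more negative than in untreated roots, or for 2 with the sequencing set as a term.

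Genes of photosynthesis, used as a marker of green tissue, moved the same way. Of 15 tested 13 were lower, with a median log2 change of -2.05 (-1.32 in untreated roots). Summed over the list, fed trans-zeatin roots held 213.2 to 282.5 CPM, starved ones 48.1 to 59.3, fed untreated roots 93.2 to 144.9 and starved untreated roots 36.6 to 52.4. LHCA4 (AT3G47470), a light-harvesting protein, had 9.91, 9.76 and 8.93 CPM against 70.2, 72.5 and 62.3 CPM (-2.84 ± 0.15). Other falls that share a high fed trans-zeatin level include SWEET12 (AT5G23660), a sucrose exporter, with 4.55, 3.47 and 2.65 CPM against 130, 122 and 116 CPM. The part of green tissue or greening in these falls was not tested.

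Cytokinin-induced genes stood higher with trans-zeatin at both phosphate levels. ARR5 (AT3G48100), a response regulator induced by cytokinin, had 185, 170 and 174 CPM in starved and 244, 242 and 250 CPM in fed trans-zeatin roots, against 20.2 ± 3.67 and 34.3 ± 2.78 CPM without it. The starved level was lower by 0.48 ± 0.10 on the log2 scale (adjusted p = 0.000466), with no called difference from untreated roots (adjusted p = 0.207). ARR7 (AT1G19050), of the same family, had 65.6, 66.5 and 68.3 against 78.4, 73.0 and 75.2 CPM, a change of -0.18 ± 0.09 that was not called (adjusted p = 0.103), where it fell by 1.45 in untreated roots. Of 10 type-A response regulators 2 rose and 3 fell, against 3 and 6 in untreated roots, and the difference was more positive for 3 and more negative for 2.

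CYP735A2 (AT1G67110), the hydroxylase that makes trans-zeatin precursors, had 311, 320 and 318 CPM in starved and 230, 222 and 244 CPM in fed trans-zeatin roots. It rose by 0.45 ± 0.11 where starvation lowered it by 1.41 in untreated roots (difference 1.85 ± 0.16, adjusted p = 1.47e-07). CKX4 (AT4G29740), a cytokinin oxidase, fell in both, by 1.09 under trans-zeatin and by 2.69 without it. TPPH (AT4G39770), a trehalose-phosphate phosphatase, had 31.8, 37.1 and 30.5 CPM against 58.3, 57.6 and 64.4 CPM (-0.86 ± 0.10 against -3.41, difference 2.55, adjusted p = 1.27e-08). All 3 genes stood higher at both phosphate levels with trans-zeatin than without.

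A further pair of genes was changed by starvation under trans-zeatin and not detectably so in untreated roots. HIS1-3 (AT2G18050), a linker histone variant, had 14.5, 9.11 and 11 CPM in starved and 65.7, 68.9 and 73.2 CPM in fed trans-zeatin roots (-2.59 ± 0.16), and 0.20 ± 0.15 in untreated ones (difference -2.79, adjusted p = 2.97e-08). GAT1_2.1 (AT1G15040), a glutamine amidotransferase-like protein, had 13.8, 10.2 and 14.7 CPM against 66.4, 71.8 and 67.1 CPM (-2.41 ± 0.16 against 0.23, difference -2.65, adjusted p = 1.47e-07). For both genes the fed trans-zeatin roots held the highest level of the 4 groups.

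Under cis-zeatin some of the reduced responses were larger than under trans-zeatin and others were not detectably different. PECP1 rose by 9.95 ± 0.43 under cis-zeatin against 5.62 under trans-zeatin (difference -4.33 ± 1.01, adjusted p = 0.00537), a call that was lost without fed trans-zeatin replicate 2. PS2 rose by 5.52 under cis-zeatin (difference -1.24, adjusted p = 0.004). OCT1 rose by 2.80 ± 0.28 under cis-zeatin and 2.75 ± 0.34 under trans-zeatin (difference -0.05 ± 0.53, adjusted p = 0.958), both under the 6.51 of untreated roots. SQD1 rose by 2.07 under cis-zeatin, between the other values, and differed from trans-zeatin by -0.50 (adjusted p = 0.004). The sequencing sets also differ between these groups.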

How the data were processed

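Poly(A) RNA of roots was sequenced for 18 libraries, and the authors deposited a table of raw read counts per gene with a report of each library's reads. CASAVA 1.4, FastQC, HISAT2, HTSeq and edgeR are named, per the submitters' processing notes. The strand setting and genome build are not given in the sources used here, so overlapping and near-identical genes are uncertain. The table's name speaks of normalized values, but the columns hold whole numbers that sum to 88.66 to 91.02% of the clean reads, and they were analysed as counts.

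Of 37037 entries 24653 had a read. The 19982 genes that filterByExpr kept (minimum count 10) were tested. TMM scaling gave factors of 0.953 to 1.063, and all 18 libraries were fitted together, with a mean per group, by the quasi-likelihood test of edgeR 4.0.16 in R 4.3.3. Same-numbered libraries of the starved untreated and starved trans-zeatin groups deviated together (r 0.27, 0.30 and 0.17; unlike numbers -0.23 to -0.03). The labels do not state this pairing, so it rests on the data. The replicate block is given above only for PHF1, DGD1 and the iron uptake counts. It moved other counts of differences from untreated roots. More negative went from 3 to 4 for PHT1 and PHF1 and from 5 to 6 for starvation transcription factors. More positive went from 4 to 5 for nitrate transport and 9 to 10 for nitrate assimilation. For mitosis it went from 3 to 4 and for lignin monomer genes from 5 to 6. Adjusted p is Benjamini-Hochberg over all tested genes, and the script was tested on simulated data. Counts limit precision: a gene with no read in a group is bounded by 3 counts over the group, and bounds and intervals cover counting error only. Promoter windows and microRNA sites were read from RefSeq on TAIR10.1.

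The text names the 12 largest called rises and falls among non-overlapping genes above the median level of 17.3 CPM, the largest differences between comparisons, and members of the gene lists. Not all genes that this rule picks are described. Members and the 46 lists were chosen with earlier results of these data known. Alternatives were DESeq2 1.42.0, limma-voom of limma 3.58.1, other scaling and filters, a robust fit, only the compared groups, a replicate block, a 1.5-fold threshold, sequencing set as a term, and fits without single libraries.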

Additional observations from a re-analysis of the deposited data

Results flagged for a closer look

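A test of the difference between phosphate effects was the only ground for a closer look. Deviating libraries were not used as a ground and are described below. The effect under trans-zeatin differed from that in untreated roots for 4085 genes and from that under cis-zeatin for 3666 (adjusted p from edgeR's quasi-likelihood test). The following values are differences of log2 changes, trans-zeatin minus the comparison named.

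Against untreated roots the phosphate genes PECP1 (-4.89), PS2 (-2.75), OCT1 (-3.76) and the WCOR413-family gene AT4G37220 (-5.36) were more negative, and PHO1;H1 was more positive (2.48). The nitrate transporters NRT2.1 (3.16) and NRT1.1 (2.4) were more positive, as were CYP735A2 (1.85), TPPH (2.55) and AT2G48080 (2.34). HIS1-3 (-2.79) and GAT1_2.1 (-2.65) were more negative. AT2G48080, which rose by 0.58 under trans-zeatin and fell by 1.76 in untreated roots, has not been described above.

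Against cis-zeatin PECP1 (-4.33), AT4G37220 (-2.64), SEN1 (-2.60) and DIN2 (-2.63), a beta-glucosidase induced in the dark, were more negative. NRT2.1 (2.82), NRT1.1 (2.12), GSTF14 (2.85), a glutathione transferase, and KIN1 (2.34), a cold-induced gene, were more positive. DIN2 fell by 1.15 under trans-zeatin and rose by 1.48 under cis-zeatin, and KIN1 rose by 1.33 and fell by 1.01. GSTF14 fell under both, by 4.15 and by 7, from 3.94, 3.59 and 5.00 CPM in fed trans-zeatin roots. Its difference from cis-zeatin was not called without starved trans-zeatin replicate 3 (1.88), nor that of PECP1 without fed trans-zeatin replicate 2 (-2.58). Sequencing sets differ between the groups, and their part in these differences was not tested against cis-zeatin. With the set as a term, where agreement is largely built in, genes listed above for their difference from untreated roots all kept its sign. GSTF14, listed only against cis-zeatin, did not. Its difference from untreated roots, not called, went from 0.405 to -0.248.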

How the results depend on the processing

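No called value of a single named gene changed direction: 4586 recomputed values kept their side of the threshold, 113 lost the call and 25 gained one. Of the recomputed counts and medians of gene lists 2062 stayed close and 146 moved, and 15 of 736 medians, in 7 lists, took the other sign. With the sequencing set as a term 4084 of the 4085 called differences kept their sign, which was largely built in, since both fits share their libraries. Tested against a 1.5-fold change, 2055 genes were higher and 1870 lower, by the construction of that test. The count of 4085 genes whose effect differs from untreated roots became 1767 with the sequencing set as a term and 1914 without starved trans-zeatin replicates 2 and 3 together. Both rest largely on the lone starved trans-zeatin library of its set, which is assumed to vary like the others, and how far the sets cause the drop was not tested. The comparison with cis-zeatin has no set-adjusted count, and the trans-zeatin comparison itself crosses the sets.

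Leaving out each library in turn gave 5938 to 6380 genes higher, 5769 to 6108 lower and 2777 to 3261 changed at least 2-fold. The same gave 3059 to 4517 differing from untreated roots, 2652 to 3972 differing from cis-zeatin, and 1487 to 1574 starvation genes called the same way under trans-zeatin, where each fit chose its own starvation genes (1515 with all libraries). Within the starved trans-zeatin group replicate 2 differs most from the others. Its chi-square per degree of freedom is 21.0 from replicate 1 and 13.85 from replicate 3, against 7.04 between those. Replicate 2 of the starved cis-zeatin group deviates more, with 31.22 and 28.95 against 4.31. It enters every difference from cis-zeatin given above, and without it 3311 genes differed from cis-zeatin. Starved and fed trans-zeatin libraries with the same number share only that number (r -0.13, -0.13 and 0.01), and with a replicate block over all groups the 6 counts were 6495, 6224, 2947, 3932, 3556 and 1512. Blocking the starved untreated and starved trans-zeatin groups alone, added after seeing the data, gave 6653, 6455, 2937, 4813, 4414 and 1520. Among the genes compared one by one with this block, no other call that the report states changed beyond those given above. This covers a gene's trans-zeatin effect and its difference from untreated roots. FRO2, NIR1, PAL1, GL2, CSD1 and CSD2 were not compared in this way.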

Other observations

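Rises and falls not described so far include AT5G20790, with 63.4, 42.2 and 47.6 CPM in starved and 2.59, 2.90 and 2.01 CPM in fed trans-zeatin roots (log2 change 4.35 ± 0.18, adjusted p = 1.19e-13 in edgeR). AGT (AT2G13360), an aminotransferase of photorespiration, had 9.29, 6.99 and 8.09 CPM against 238, 243 and 213 CPM (-4.83 ± 0.13), and its difference from the -4.80 of untreated roots was not called (adjusted p = 0.928). BCAT2 (AT1G10070), of branched-chain amino acid metabolism, had 4.36, 3.34 and 3.77 CPM against 83.2, 85.1 and 79.1 CPM (-4.43 ± 0.17). AT4G07820 had 1.2, 0.564 and 1.07 CPM against 85.6, 84.0 and 76.6 CPM (-6.45 ± 0.20). In each of these genes the groups did not overlap.

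Of 10 auxin carrier and synthesis genes 8 rose, or 6 without starved replicate 2. TAA1, which makes the auxin precursor, rose by 1.62, and PIN2, an efflux carrier of the root tip, by 0.93. Of 11 aquaporins 8 fell and 3 rose, and for 5 the effect was more negative than in untreated roots, or for 1 with the sequencing set as a term.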
